A study of Mus musculus with 8 samples.

Results

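Cytochrome P450 enzymes are heme proteins that insert an oxygen atom into drugs, inhaled chemicals, fatty acids, sterols and vitamins. The P450 genes described here were all array rows whose RefSeq transcript carries a mouse gene symbol of a set form. That form is Cyp, a family number, subfamily letters and a gene number, which leaves out symbols with a pseudogene suffix. There were 85 such genes, each with 1 row, among 19836 gene symbols and 24625 rows in all. Gene type was not checked, and the rows of Cyp2d13 and Cyp2u1 belong to RefSeq transcripts classed as non-coding. Another 10 symbols of this form had no matched row (Cyp26c1, Cyp2a4, Cyp2c40, Cyp2c69, Cyp2j7, Cyp2j8, Cyp4a10, Cyp4a29, Cyp4f17 and Cyp4v3). The series holds 8 lung neutrophil samples, of which 4 came from mice that received phosphate-buffered saline (PBS) and 4 from mice that received the pneumonia bacterium Streptococcus pneumoniae (SP). Mice of both groups were wild type and labelled as 6 to 12 weeks old. PBS or bacteria went into the left lung through the trachea, 2.3 µl for each g of the mouse, and cells were collected 24 hours later. The lungs were digested to single cells, and cells that carried the neutrophil surface protein Ly6G were held back on magnetic beads. The authors examined stained cells of the SP samples for purity and described the few other cells as alveolar macrophages and, rarely, eosinophils. The purity of the PBS samples is not given in the sources used here. The study describes each sample as coming from a mouse, and p-values measure the spread between the 4 samples of a group.

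P450 enzymes of the endoplasmic reticulum receive electrons from P450 oxidoreductase and cytochrome b5, and those of mitochondria from ferredoxin. In the lung, the enzymes that handle inhaled chemicals are best known from club cells, the secretory cells of the small airways, and from alveolar type 2 cells, which make surfactant. Neutrophils are known for Cyp4f18, an enzyme that hydroxylates leukotriene B4 near the end of its fatty acid chain, the lipid that attracts neutrophils, and so starts its breakdown.

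The 4 P450 genes with the largest falls in SP samples were Cyp2b10, Cyp2a5, Cyp2s1 and Cyp2f2, and all lie in the same stretch of chromosome 7. The 150 bases before the start of each are printed here from RefSeq (assembly GRCm38.p6), together with those of Cyp2b23 and Cyp2b19 of the same stretch. The sequences are shown because Cyp2b10, Cyp2a5, Cyp2b23 and Cyp2b19 share the letters TTGCATAA and ATAAAAG, the latter a TATA-like word. Among them, only Cyp2b10 and Cyp2a5 were called lower. Cyp2b23 and Cyp2b19 had PBS means of 5.03 and 4.38, near or within the values taken below as those of absent RNAs (4.33 to 4.90). A fall in these genes could hardly have been read. Capitals mark those words and GCGTG, the core recognised by the aryl hydrocarbon receptor, on either strand, and each sequence runs 5′ to 3′ on the strand of its gene.
Cyp2s1 (chr7:25816526-25816675, minus strand): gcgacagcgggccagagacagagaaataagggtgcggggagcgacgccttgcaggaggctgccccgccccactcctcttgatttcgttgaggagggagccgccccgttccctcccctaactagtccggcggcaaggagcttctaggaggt
Cyp2b10 (chr7:25897508-25897657, plus strand): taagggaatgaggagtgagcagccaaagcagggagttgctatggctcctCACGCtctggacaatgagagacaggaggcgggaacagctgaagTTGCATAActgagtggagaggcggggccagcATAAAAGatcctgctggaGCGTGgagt
Cyp2b23 (chr7:26686431-26686580, minus strand): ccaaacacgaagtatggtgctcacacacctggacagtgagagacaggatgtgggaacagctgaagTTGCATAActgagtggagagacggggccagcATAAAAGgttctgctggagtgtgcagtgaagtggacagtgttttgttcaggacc
Cyp2b19 (chr7:26756992-26757141, plus strand): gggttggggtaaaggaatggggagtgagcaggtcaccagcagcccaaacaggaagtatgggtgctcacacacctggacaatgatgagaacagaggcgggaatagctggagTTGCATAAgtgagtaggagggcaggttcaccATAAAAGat
Cyp2a5 (chr7:26835189-26835338, plus strand): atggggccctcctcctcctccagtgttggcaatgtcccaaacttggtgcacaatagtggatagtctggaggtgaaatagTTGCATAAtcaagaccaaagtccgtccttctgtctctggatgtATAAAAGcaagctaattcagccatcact
Cyp2f2 (chr7:27119805-27119954, plus strand): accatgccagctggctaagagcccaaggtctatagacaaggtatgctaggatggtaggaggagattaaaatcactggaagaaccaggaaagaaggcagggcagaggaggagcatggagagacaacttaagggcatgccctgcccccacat

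The word TTGCATAA or its reverse complement stood in 0.444% of the 32851 mouse windows of this length, and in the windows of 5 of the 66 P450 genes that the promoter table holds (Cyp2a5, Cyp2b10, Cyp2b19, Cyp2b23 and Cyp4f14). The word ATAAAAG stood in 3.01% of all windows and in 9 of the 66 genes, among them the same 5. ATAAAAG began 27 and 28 bases before the start in Cyp2b10 and Cyp2a5, but 54 bases before it in Cyp2b23 and 9 in Cyp2b19. The first letters of both words lay 31 bases apart in Cyp2b10, Cyp2b23 and Cyp2b19, and 43 bases apart in Cyp2a5. The windows of Cyp2s1 and Cyp2f2, which also fell, hold neither word. The core GCGTG stood in 20.5% of all windows and in 10 of the 66 genes, and Cyp2b10 holds it at each of 2 places. Of the 5 genes with TTGCATAA, Cyp2b10 and Cyp2a5 were lower in SP samples and Cyp2b23 was higher by 0.49 log2 units. Cyp2b19 and Cyp4f14, at differences of 0.20 and 0.26, did not pass the test. The PBS means of Cyp2b23, Cyp2b19 and Cyp4f14 were 5.03, 4.38 and 4.44, levels at which a fall could hardly be read. These matches describe letters only, and the words were chosen after the sequences and the differences had been seen.

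Values are log2 signals as the authors normalized them, so that 1 unit is a 2-fold difference within a row. The probes of different genes differ in brightness, and levels are therefore not compared between genes. The mean over all 8 samples exceeded 5 for 34 of the 85 P450 genes (40.0%), beside 66.4% of all rows. The SP mean exceeded 5 for 39 and the PBS mean for 32, with 31 genes in both counts. On single arrays, 27 to 34 P450 genes exceeded 5 in PBS samples and 36 to 43 in SP samples. The share of all rows above 5 was also higher in SP samples, at 66.0% to 72.2% against 64.0% to 64.8% in PBS samples. In 25 genes all 8 arrays were above 5, in 38 none was, and in 22 only some were. The genes nearest below the level were Cyp2d9, Cyp2c23, Cyp2c50 and Cyp2c38, at means of 4.91, 4.96, 4.96 and 4.96, and those nearest above it were Cyp3a16, Cyp3a57, Cyp2b13 and Cyp4f40, at 5.02, 5.06, 5.08 and 5.09. The paper reports bought female mice, colonies bred from them and sex-matched animals, without the sex of each sample. On all arrays 3 genes of the Y chromosome, Ddx3y, Kdm5d and Uty, gave values of 4.33 to 4.90. This range is taken as a guide to what an absent RNA reads. Other rows can read lower, such as Cyp3a25 at 3.98 in PBS replicate 4. The 3 Y-linked genes were themselves higher in SP samples by 0.12, 0.19 and 0.18, and Kdm5d passed the threshold (adjusted p = 0.0497, limma). Small rises of P450 genes at this level thus stand beside rises of RNAs taken as absent. In 34 P450 genes no array rose above 4.90.

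Of the 85 P450 genes, 17 were lower and 15 were higher in SP samples at an adjusted p of at most 0.05 in limma's test over all rows, beside 22.6% of all rows lower and 21.5% higher (44.1% in either direction). With a difference of at least 2-fold as well, 13 were lower (15.3%, beside 11.3% of all rows) and 0 were higher (beside 6.37% of all rows). At an unadjusted p of at most 0.05, 1 gene, Cyp7b1, was higher by 2-fold in limma's test, and the per-row test named in the methods gave 0 after adjustment. The groups did not overlap in 40 genes, 16 of them lower and 24 higher, beside 49.0% of all rows. The share lower by 2-fold was near that of all rows. The median difference was 0.14 over the P450 genes and 0.10 over all rows. The split between directions depended on the scaling: with quantile normalization of the 8 arrays 16 were lower (18.8%, beside 22.0% of all rows) and 6 higher (7.06%, beside 19.6%), and with each array centred on its median 15 were lower (17.6%, beside 16.4%) and 63 higher (74.1%, beside 57.7%). The medians of the SP arrays were lower than those of the PBS arrays by 0.28 on average, which centring adds to each difference.

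**Figure D1:**
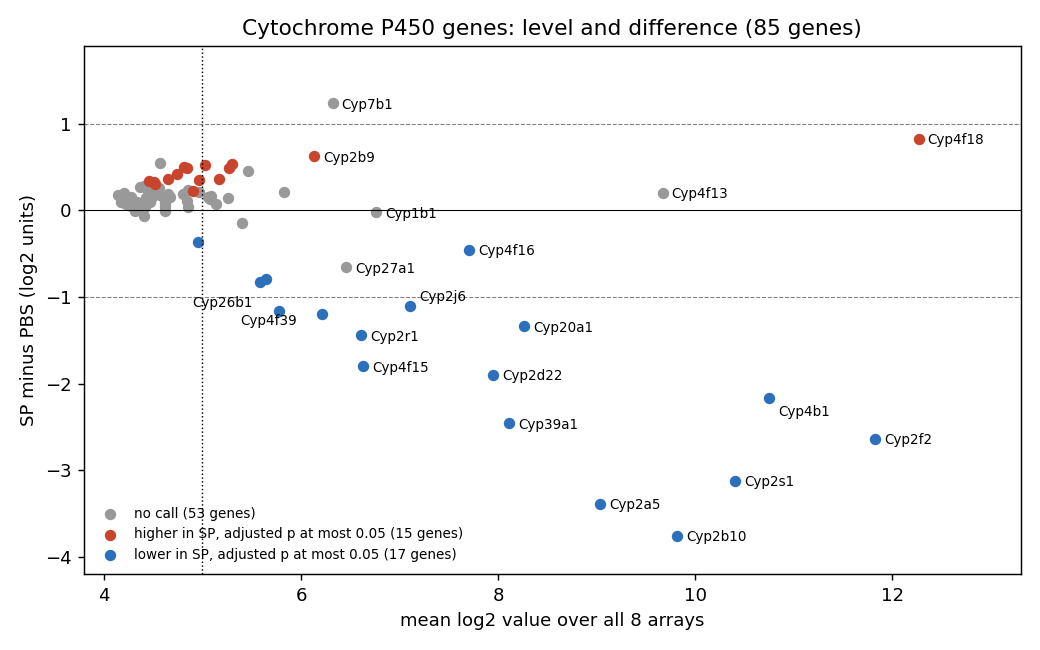
Each point is 1 of the 85 P450 genes, with its mean log2 value over all 8 arrays on the x axis and the SP minus PBS difference in log2 units on the y axis. Blue points were lower in SP samples (17 genes), red points higher (15 genes) and grey points not called (53 genes) at an adjusted p of at most 0.05. The dotted line marks a level of 5 and the dashed lines a 2-fold difference. All 13 genes below the lower dashed line have a mean above 5, and most genes at or below 5 lie in a narrow band just above 0.

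Differences were spread unevenly over levels. Among the 34 genes with a mean above 5, 16 were lower, 6 were higher and 13 were lower by 2-fold, with a median difference of -0.30. All rows above 5 had a median of -0.07, with 33.0% lower and 23.4% higher, and 16.9% lower and 9.54% higher by 2-fold. A mean over all arrays also admits genes that are high in 1 group only, so these counts are given as a description. Both group means were above 5 in all 13 genes that were lower by 2-fold. Among the 51 genes with a mean of 5 or less, 1 was lower (beside 1.94% of all rows at this level), 9 were higher and none reached 2-fold. Their median difference was 0.15, beside 0.16 over all rows at 5 or less, and with quantile normalization it was 0.02. The 9 of 51 called higher (17.6%) stand beside 17.9% of all rows at this level.

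A list of 36 genes covered P450 enzymes that act mainly on drugs and inhaled chemicals. Cyp2a4 had no matched row, and Cyp3a41a was not counted because its symbol has another form. The other 34 genes had a median difference of 0.14. Of these, 7 were lower (20.6%, beside 22.6% of all rows) and 6 higher (17.6%, beside 21.5%). By 2-fold, 6 were lower (17.6%, beside 11.3% of all rows). The 6 lower by 2-fold were Cyp2b10, Cyp2a5, Cyp2s1, Cyp2f2, Cyp4b1 and Cyp2d22.

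Cyp2b10 is the enzyme that drugs such as phenobarbital induce in the liver through the receptor CAR. Its log2 values were 11.98, 12.18, 11.15 and 11.48 in PBS replicates 1 to 4 and 7.74, 8.17, 6.86 and 8.99 in SP replicates 1 to 4. Every SP sample was below every PBS sample, and the SP samples spread over a wider range than the PBS samples. The difference was -3.76 ± 0.43 (SE, n = 4 per group), a 13.5-fold lower level, with an adjusted p of 0.000248 in limma's test. In bulk samples such as these, fewer cells of a type and less RNA per cell cannot be told apart.

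Cyp2a5 oxidises coumarin and nicotine. Its values were 10.14, 11.47, 10.28 and 11.01 in PBS samples and 7.40, 7.32, 6.84 and 7.80 in SP samples, with a gap of over 2 log2 units between the groups. The difference was -3.39 ± 0.32 (10.5-fold, adjusted p = 9.72e-05, limma). Cyp2a4, a near-identical gene of the same stretch of chromosome 7, had no matched row, and array probes may not separate the RNAs of such pairs.

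Cyp2s1 is a P450 of airway and other surface tissues that dioxin induces. It stood at 12.09, 12.31, 11.64 and 11.83 in PBS samples and at 8.99, 9.34, 7.99 and 9.07 in SP samples. SP replicate 3 was the lowest of all, and the groups were far apart. The fall was 8.69-fold (difference -3.12 ± 0.29, adjusted p = 8.29e-05, limma).

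Cyp2f2, which turns naphthalene into a toxic epoxide in club cells, had values of 13.11, 13.39, 12.92 and 13.13 in PBS samples and 10.39, 10.72, 9.86 and 11.05 in SP samples. The SP values remained far above the range of the Y-linked genes in every sample. The difference was -2.63 ± 0.24 (6.21-fold, adjusted p = 7.89e-05, limma).

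Cyp4b1, a lung enzyme that activates the plant toxin ipomeanol, measured 12.00, 12.34, 11.44 and 11.54 in PBS samples and 9.71, 9.87, 9.14 and 9.94 in SP samples. The groups were separate, with a difference of -2.17 ± 0.24 (4.49-fold, adjusted p = 0.000220, limma). Cyp2d22, a member of the subfamily that oxidises many basic drugs, measured 9.07, 9.17, 8.66 and 8.67 in PBS samples and 6.94, 7.10, 6.18 and 7.77 in SP samples. Its SP samples differed among themselves by more than its PBS samples did, but none reached the PBS range (difference -1.90 ± 0.30, 3.73-fold, adjusted p = 0.00147, limma). Cyp3a13, a gene of the drug-metabolising subfamily of the gut and liver, was lower without reaching 2-fold, at a mean of 6.00 ± 0.20 (SD, n = 4) in PBS samples and 5.17 ± 0.07 in SP samples.

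Cyp1a1, which oxidises polycyclic hydrocarbons and is induced through the aryl hydrocarbon receptor, lay between 4.27 and 4.50 on all arrays. These values were not above the range of the Y-linked genes, where a fall could not be read. Cyp1b1, its relative in stromal and immune cells, measured 7.16, 6.59, 6.73 and 6.59 in PBS samples and 6.55, 6.45, 6.47 and 7.53 in SP samples. These groups overlapped, with the highest value in SP replicate 4, and the difference of -0.02 ± 0.26 (adjusted p = 0.955, limma) turned positive under both scaling alternatives. Cyp2e1, the ethanol-oxidising enzyme of the liver, lay between 4.30 and 4.62, also not above that range. The genes called higher in the drug and chemical list were Cyp2b9, at 5.82 ± 0.12 in PBS samples and 6.45 ± 0.28 in SP samples, together with Cyp2b23, Cyp3a16, Cyp3a11, Cyp1a2 and Cyp2d9, whose differences were 0.22 to 0.52.

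A list of 41 genes covered enzymes of fatty acids and eicosanoids, the signalling lipids made from arachidonic acid. It holds Cyp4a30b, whose symbol has another form, and Cyp2c23 only under its older name Cyp2c44. These and the listed genes without a matched row were not counted here, which left 31 genes. Of these, 5 were lower and 5 higher (16.1% each, beside 22.6% and 21.5% of all rows), with a median difference of 0.13. By 2-fold, 3 were lower (9.68%, beside 11.3% of all rows). Cyp4f15, a fatty acid hydroxylase, measured 7.11, 8.53, 6.63 and 7.84 in PBS samples and 5.75, 5.66, 5.84 and 5.67 in SP samples. PBS samples varied widely while SP samples lay close together, and the groups did not overlap (difference -1.80 ± 0.36, 3.48-fold, adjusted p = 0.00452, limma). Cyp4f39, whose product is a component of the lipid barrier of the skin, was at 6.63, 7.02, 6.56 and 7.01 in PBS samples and 5.62, 5.45, 5.86 and 5.52 in SP samples, a difference of -1.19 ± 0.14 (adjusted p = 0.000311, limma). Cyp2j6, of the subfamily that makes epoxides of arachidonic acid, was at 7.72, 8.10, 7.28 and 7.53 in PBS samples and 6.63, 6.31, 6.36 and 6.92 in SP samples, a difference of -1.10 ± 0.20 (adjusted p = 0.00263, limma). Both genes were below the PBS range in every SP sample. Each fell short of 2-fold with both scaling alternatives, and Cyp2j6 did so also with array weights and without PBS replicate 2, where its difference was -0.96. Cyp2j9, of the same subfamily, was lower by less than 2-fold (6.04 ± 0.18 in PBS and 5.25 ± 0.15 in SP samples).

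Cyp4f18, the leukotriene B4 hydroxylase of mouse neutrophils, was the bright P450 gene that moved up. Its values were 11.85, 10.96, 12.33 and 12.27 in PBS samples and 12.84, 12.87, 12.63 and 12.39 in SP samples. Every SP sample was above every PBS sample, although SP replicate 4 exceeded PBS replicate 3 only slightly and PBS replicate 2 stood well below the rest of its group. The difference was 0.83 ± 0.29 (1.78-fold higher, adjusted p = 0.0470, limma). Without PBS replicate 2 it was 0.53 (adjusted p = 0.0384), and the call was lost without PBS replicate 1 (adjusted p = 0.0956) or without SP replicate 1, 2 or 3 (adjusted p of 0.105, 0.0980 and 0.0744). It was also lost with quantile normalization (0.63, adjusted p = 0.0795), with the per-row test of the methods (adjusted p = 0.0894) and with the replicate number as a block (adjusted p = 0.0834). The direction was the same in all of these.

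Other fatty acid hydroxylases of the CYP4F group took different courses. Cyp4f13 measured 9.44, 9.50, 9.68 and 9.65 in PBS samples and 9.63, 9.67, 10.11 and 9.68 in SP samples, and the groups overlapped (difference 0.21 ± 0.12, adjusted p = 0.184, limma). With arrays centred on their median, Cyp4f13 was higher by 0.49 (adjusted p = 0.0168). Cyp4f16 measured 8.00, 8.06, 7.59 and 8.08 in PBS samples and 7.38, 7.69, 7.21 and 7.63 in SP samples. PBS replicate 3 lay within the SP range, and the difference of -0.46 ± 0.15 (adjusted p = 0.0369, limma) lost its call in 9 of 15 alternatives. Cyp2u1, a hydroxylase of long fatty acids, did not pass the test at 5.47 ± 0.09 in PBS and 5.33 ± 0.15 in SP samples. Its row belongs to a transcript classed as non-coding.

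**Figure D2:**
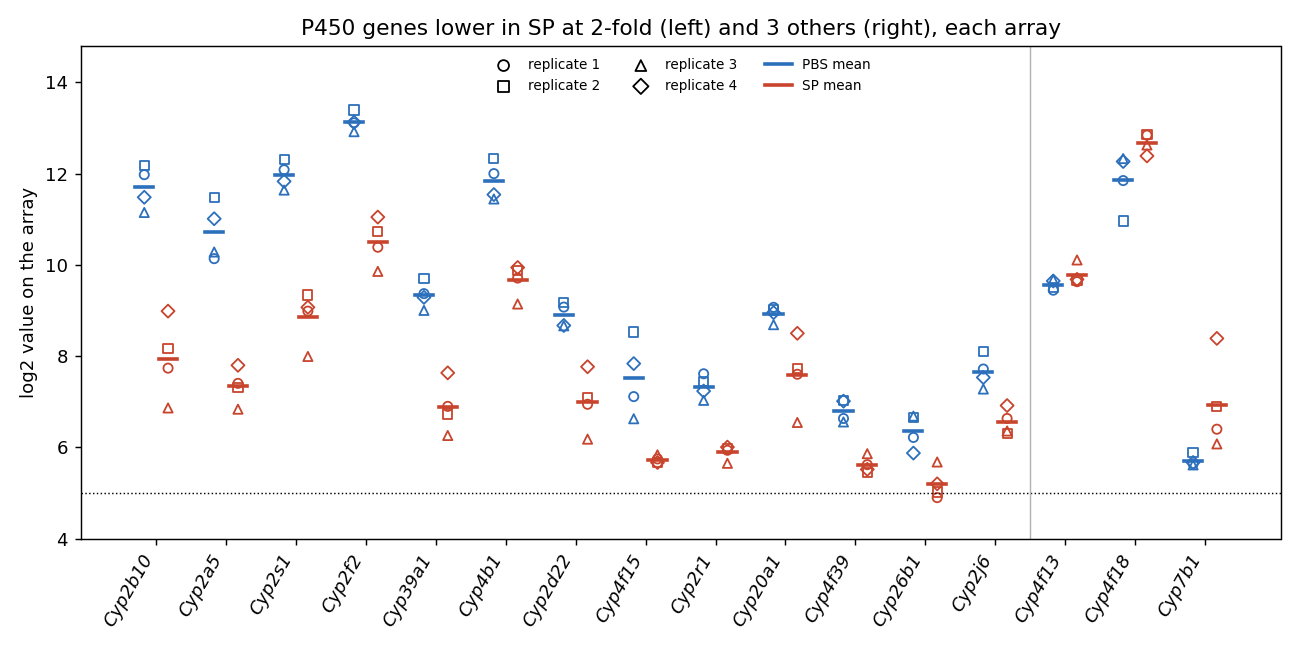
Log2 values of 16 P450 genes on the 8 arrays, with blue symbols for PBS samples, red symbols for SP samples, a shape for each replicate number and a bar for each group mean. The 13 genes left of the grey line were lower in SP samples by at least 2-fold, and their groups do not overlap. On the right, Cyp4f13 groups overlap, Cyp4f18 is higher in all SP samples, and the SP values of Cyp7b1 spread from 6.07 to 8.39.

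Sterol and bile acid enzymes were measured in 6 of 6 listed genes. Of these, 1 was lower (16.7%, beside 22.6% of all rows) and 2 (Cyp8b1 and Cyp7a1) were higher (33.3%, beside 21.5%). Cyp39a1, which hydroxylates an oxysterol of the brain on the way to bile acids, measured 9.369, 9.699, 9.002 and 9.288 in PBS samples and 6.898, 6.731, 6.259 and 7.632 in SP samples. All SP samples were far below the PBS range (difference -2.46 ± 0.28, 5.50-fold, adjusted p = 0.000231, limma). Cyp7b1, which breaks down the oxysterols that guide immune cells, moved the other way, with 5.64, 5.88, 5.61 and 5.67 in PBS samples and 6.40, 6.89, 6.07 and 8.39 in SP samples. No SP sample overlapped the PBS samples, and SP replicate 4 stood far above the other SP samples.

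The difference of Cyp7b1 was 1.24 ± 0.44 and missed the threshold at an adjusted p of 0.0502 in limma's test. It passed with array weights (1.19, adjusted p = 0.0146), with both scaling alternatives (1.52 and 1.48, adjusted p of 0.00821 and 0.0143) and without SP replicate 3 (1.53, adjusted p = 0.0233). Without SP replicate 4 it was 0.76 (adjusted p = 0.0153), which is below 2-fold. Cyp27a1, the mitochondrial sterol hydroxylase, measured 7.27, 6.81, 6.50 and 6.56 in PBS samples and 6.10, 6.70, 5.69 and 6.04 in SP samples. The groups overlapped through SP replicate 2, and the difference of -0.66 ± 0.24 also just missed the threshold (adjusted p = 0.0533, limma). It passed with an intensity trend (adjusted p = 0.0434), with the replicate number as a block (0.0376), with rows below the median left out (0.0396) and without SP replicate 2 (-0.85, adjusted p = 0.0163), and shrank to -0.38 and -0.30 with centred arrays and quantile normalization.

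Vitamin A and D enzymes were measured in 5 of 6 listed genes. Of these, 2 were lower, both by 2-fold (40%, beside 22.6% of all rows lower and 11.3% by 2-fold). Only 1 was higher (20%, beside 21.5%). Cyp2r1, which makes the circulating form of vitamin D, measured 7.61, 7.45, 7.03 and 7.23 in PBS samples and 5.94, 5.97, 5.65 and 6.00 in SP samples. Its groups were more than 1 log2 unit apart (difference -1.44 ± 0.14, 2.71-fold, adjusted p = 0.000113, limma). Cyp26b1, which breaks down retinoic acid, measured 6.22, 6.66, 6.68 and 5.87 in PBS samples and 4.90, 5.02, 5.68 and 5.20 in SP samples. The groups did not overlap, and SP replicate 1 reached the range of the Y-linked genes, where lower levels cannot be read. The fall was 2.23-fold (difference -1.16 ± 0.23, adjusted p = 0.00409, limma). It fell short of 2-fold with both scaling alternatives. Cyp27b1, which makes the active form of vitamin D, was higher by 0.51 ± 0.13 (adjusted p = 0.0136, limma), but its values were 4.51, 4.54, 4.62 and 4.58 in PBS samples and 4.97, 4.83, 5.44 and 5.03 in SP samples. All PBS values lay within the range of the Y-linked genes, as did SP replicate 2, and the other SP values were above it.

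Steroid hormone enzymes were measured in 6 of 6 listed genes, and none had a mean above 5. None was lower (beside 22.6% of all rows) and 1 was higher (16.7%, beside 21.5%). Cyp11b1 was called higher by 0.36, from 4.47 ± 0.10 to 4.83 ± 0.19, and the others did not pass the test, among them Cyp11a1, which cuts the side chain of cholesterol, at a difference of 0.10 ± 0.08. Cyp20a1, Cyp2c23 and Cyp2a22 were in none of these lists, and the first 2 were lower. The substrate of Cyp20a1 is not known. Its values were 9.07, 9.01, 8.69 and 8.95 in PBS samples and 7.60, 7.73, 6.55 and 8.50 in SP samples, with SP replicate 4 just below the PBS range. The difference was -1.34 ± 0.35 (2.53-fold, adjusted p = 0.0163, limma), and without SP replicate 3 it was -0.99. Cyp2c23, an epoxygenase of arachidonic acid that the fatty acid list holds only under its older name Cyp2c44, was lower by less than 2-fold, at 5.14 ± 0.05 in PBS and 4.77 ± 0.08 in SP samples. Probes of the CYP2C, CYP2D, CYP3A and CYP4A genes may also read close relatives, so values of single genes in those groups are uncertain.

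The stretch of chromosome 7 from Cyp2s1 to Cyp2t4 holds 13 P450 genes of this form in the RefSeq annotation, with genes of other families between some of them. Of these, 12 had a row, and 4 were lower by 2-fold, in the order Cyp2s1, Cyp2b10, Cyp2a5 and Cyp2f2. The other 8 genes (Cyp2b13, Cyp2b9, Cyp2b23, Cyp2b19, Cyp2g1, Cyp2a22, Cyp2a12 and Cyp2t4) had differences between -0.01 and 0.63, of which those of Cyp2b9 (0.63) and Cyp2b23 (0.49) were called higher. Their PBS means lay between 4.27 and 5.82. Cyp2s1 and Cyp2b10 are neighbours in this order. Cyp2b13, Cyp2b9, Cyp2a4, Cyp2b23, Cyp2b19 and Cyp2g1 stand between Cyp2b10 and Cyp2a5, and Cyp2a22 and Cyp2a12 between Cyp2a5 and Cyp2f2.

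**Figure D3:**
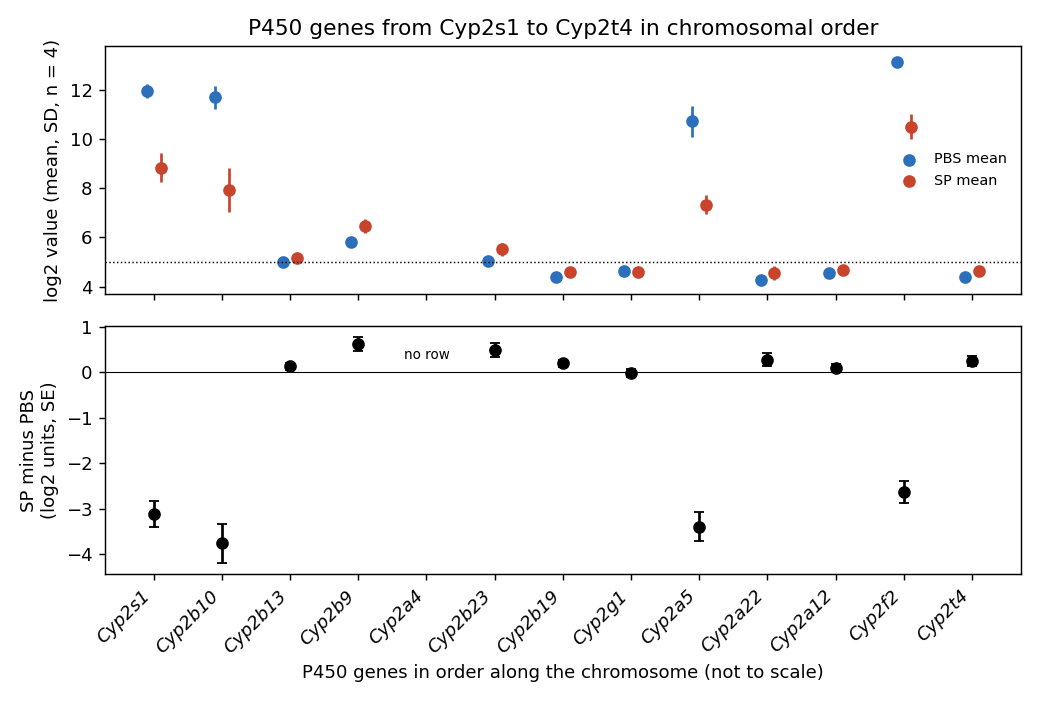
P450 genes from Cyp2s1 to Cyp2t4 in their order along chromosome 7, not to scale, with the group means and SDs of the log2 values above (n = 4) and the SP minus PBS difference with its SE below. Cyp2s1, Cyp2b10, Cyp2a5 and Cyp2f2 have PBS means above 10 and differences of -2.63 to -3.76, while the others have PBS means of 4.27 to 5.82 and differences of -0.01 to 0.63. Cyp2a4 had no matched row.

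The 13 genes that were lower by 2-fold also moved together within the groups. PBS replicate 2 was the highest PBS sample in 10 of the 13 and PBS replicate 3 the lowest in 11. Among SP samples, replicate 3 was the lowest in 9 and replicate 4 the highest in 9. In Cyp4f15, Cyp4f39 and Cyp26b1, SP replicate 3 was instead the highest. Cyp2j6 was lowest in SP replicate 2 (6.31, against 6.36 in SP replicate 3). Cyp2s1 was highest in SP replicate 2 (9.34, against 9.07 in SP replicate 4). The mean level of the 13 genes was 9.39, 9.80, 9.07 and 9.34 in PBS samples and 7.27, 7.34, 6.85 and 7.70 in SP samples.

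Markers of other lung cells were lower in SP samples as well. Over all rows, 22.6% were lower and 21.5% higher. All 7 measured club cell markers of 8 listed were lower in SP samples, 6 of them by 2-fold, and their mean level was 11.40 to 12.24 in PBS samples and 8.48 to 9.99 in SP samples. Scgb1a1, the main secreted protein of club cells, was lower by less than 2-fold, at a difference of -0.63. PBS replicate 2 was the highest PBS sample in 6 of the 7 markers and PBS replicate 3 the lowest in 5. SP replicate 3 was the lowest SP sample in 5 and SP replicate 4 the highest in 6. No club cell marker was at the level of the Y-linked genes.

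Alveolar type 2 markers were lower in 8 of 10 genes, at mean levels of 11.77 to 12.29 in PBS and 9.96 to 11.30 in SP samples. Ciliated cell markers were lower in 8 of 8, at 9.49 to 10.38 and 6.64 to 7.39, and alveolar type 1 markers in 5 of 6, at 10.06 to 10.84 and 8.27 to 9.35. Alveolar type 2 markers largely kept the within-group order of the club cell markers. PBS replicate 2 was highest in 9 of 10, SP replicate 3 lowest in 8 and SP replicate 4 highest in 9. Their lowest PBS sample was replicate 3 in 5 of 10, replicate 4 in 3 and replicate 1 in 2. Ciliated cell markers followed that order in part. PBS replicate 2 was the highest PBS sample in 8 of 8 ciliated cell markers and PBS replicate 3 the lowest in 8. SP replicate 3 was the lowest SP sample in 8, but SP replicate 2 was the highest in 7 and SP replicate 4 in 1. Endothelial markers were lower in 8 of 10, at 10.26 to 11.23 and 8.70 to 9.88. Within the groups, PBS replicate 2 was highest in 9, SP replicate 3 lowest in 8 and SP replicate 4 highest in 8. Unlike in the 13 P450 genes, their lowest PBS sample was mostly replicate 4 (8 of 10, replicate 3 in 2). B cell markers were lower in 5 of 5, at 8.10 to 9.07 and 6.03 to 7.37. Fibroblast markers were lower in 2 of 7, alveolar macrophage markers were lower in 3 and higher in 2 of 7, eosinophil markers were higher in 1 of 5, and monocyte and macrophage markers were higher in 4 of 8. The labelled neutrophils were present in all samples: 10 of 10 neutrophil markers were measured, 3 were lower, none by 2-fold, and their mean level was 12.23 to 12.48 in PBS and 11.79 to 12.79 in SP samples. Neutrophil markers were highest in PBS replicate 3 (8 of 10) and SP replicate 3 (9 of 10), the same samples in which most of the 13 P450 genes were lowest. The part of the other cell types in the P450 differences was not tested.

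**Figure D4:**
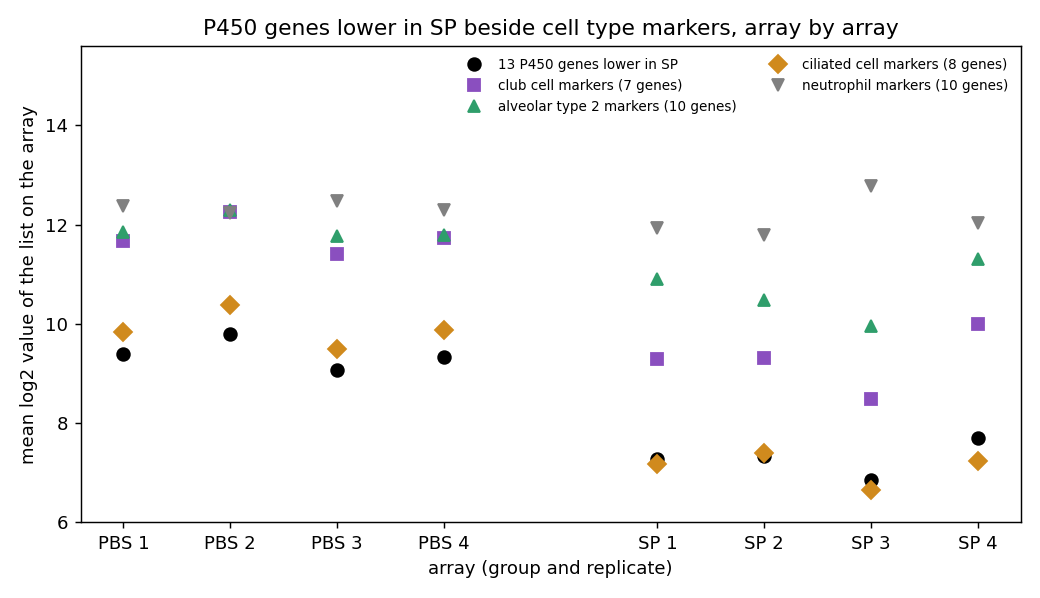
Mean log2 value of 5 gene lists on each of the 8 arrays, with the 13 P450 genes lower in SP samples as black circles beside markers of club cells, alveolar type 2 cells, ciliated cells and neutrophils. The P450 genes, the club cell markers and the ciliated cell markers drop by more than 1 log2 unit from the PBS to the SP samples. They have their lowest point in SP replicate 3, where the neutrophil markers have their highest. Alveolar type 2 markers are also lower in SP samples and lowest in SP replicate 3 (9.96), but SP replicate 4 (11.30) lies close to the PBS samples (11.77 to 12.29).

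A list of proteins that feed electrons to P450 enzymes also holds Pgrmc1 and Pgrmc2, which are not electron donors. Of its 12 genes, 10 were measured, with a median difference of -0.92. Of these, 6 were lower (60%, beside 22.6% of all rows) and 0 higher (beside 21.5%). By 2-fold, 5 were lower (50%, beside 11.3% of all rows), Pgrmc1 and Pgrmc2 among them. The progesterone receptor membrane components Pgrmc1 and Pgrmc2, heme-binding partners of P450 enzymes, differed by -1.87 and -1.03, the mitochondrial ferredoxin Fdx1 by -1.33, cytochrome b5 (Cyb5a) by -1.28 and its reductase Cyb5r3 by -1.23. Por, the common P450 oxidoreductase, did not pass the test, at 11.26 ± 0.07 in PBS and 11.46 ± 0.14 in SP samples. The donor that all microsomal P450 enzymes use thus differed by 0.20, while its partner cytochrome b5 was lower.

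Enzymes that work beside P450 enzymes on drugs and chemicals were measured in 27 of 29 listed genes, with a median difference of -2.07. Of these, 23 were lower (85.2%, beside 22.6% of all rows) and 2 higher (7.41%, beside 21.5%). By 2-fold, 19 were lower (70.4%, beside 11.3% of all rows). The largest falls were those of the aldehyde oxidase Aox3 (-3.74) and the carboxylesterase Ces1d (-3.74). The epoxide hydrolase Ephx1 differed by -3.20, from 11.80 ± 0.26 to 8.60 ± 0.52. Aldh1a7, which is also in the club cell list, differed by -3.01. The quinone reductase Nqo1 was higher by 1.56, and the retinal dehydrogenase Aldh1a3 by 0.75.

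Transcription regulators of P450 genes were measured in 16 of 16 listed genes, with a median difference of -0.11. Of these, 4 were lower (25%, beside 22.6% of all rows) and 5 higher (31.25%, beside 21.5%). The aryl hydrocarbon receptor Ahr was lower by 2-fold (10.17 ± 0.22 in PBS and 8.58 ± 0.47 in SP samples), as was the retinoic acid receptor Rarb (-2.26). The oxysterol receptor Nr1h3 was higher by 2.30 and its partner Rxra by 1.02. Nr1i3, the receptor CAR that induces Cyp2b10 in liver, was at 4.40 ± 0.10 and 4.72 ± 0.12, means within the range of the Y-linked genes. Nr1i2, its relative PXR, was at 4.51 ± 0.26 and 4.25 ± 0.09, not above that range.

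Genes of the supply of heme, which P450 enzymes need as their cofactor, were measured in 8 of 10 listed genes. Of these, 4 were lower (50%, beside 22.6% of all rows), 1 of them by 2-fold (Ppox, -1.33). Another 2 were higher (25%, beside 21.5%), both by 2-fold. Those 2 were the heme-degrading enzymes Hmox1 (difference 2.15) and Hmox2 (1.14). Alas1, the first enzyme of heme synthesis outside red cell precursors, did not pass the test, at 11.93 ± 0.17 in PBS and 12.13 ± 0.10 in SP samples.

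**Figure D5:**
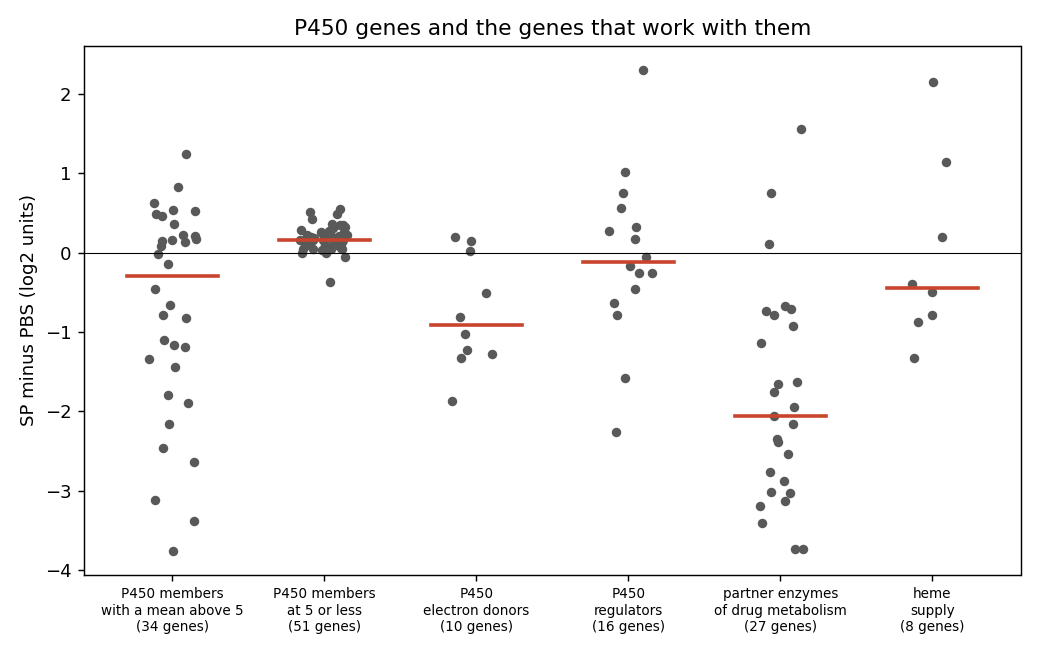
SP minus PBS differences in log2 units, with a point for each gene and a red bar for each median. The groups are P450 genes above and at or below a mean of 5, and the lists of electron donors, regulators, partner enzymes of drug metabolism and heme supply. The electron donor list also holds Pgrmc1 and Pgrmc2. The medians are -0.30, 0.15, -0.92, -0.11, -2.07 and -0.44, and the P450 genes at 5 or less form the narrowest group.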

How the data were processed

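Gene expression was measured on 8 Affymetrix Mouse Gene 1.1 ST arrays, 4 per group, with groups and replicate numbers from the sample titles. The deposited values are log2 intensities. The authors made them by robust multi-array averaging (RMA), which corrected for background, GC content and probe sequence, then normalized by quantiles, and summarised the probes of a gene by median polish. The submitters' processing notes name Affymetrix Expression Console, RMA and Partek. Array medians were 6.06 to 6.20 in PBS and 5.78 to 5.91 in SP samples. RMA values are relative within an array, and differences near background are compressed. Precision is limited by the number of arrays.

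Of 24625 rows, 19915 (80.9%) received a symbol through RefSeq accessions of GRCm38.p6. No build is stated for the values, and coordinates belong to the RefSeq sequences only. Rows were compared with limma (version 3.58.1, R 4.3.3; lmFit and eBayes, two-sided, Benjamini-Hochberg over all rows), with calls at an adjusted p of at most 0.05 and, separately, at least 1 log2 unit. In simulated data with independent normal noise, 200 of 24625 rows were changed by at least 1 log2 unit. There limma recovered 80% of the changed rows with 8 false calls. In the real data 44.1% of rows were called, so these rates may not hold for them. Named genes comprised members called at 2-fold, a fixed list of 23, and the 10 with the highest means, and members called below 2-fold were added after their values were seen. The members and gene lists were chosen with earlier results of these data known. No list test was run. There were 15 alternatives to the fit, including leaving out each sample. The sources used here do not say whether samples of the same replicate number were handled together. Correlations of same-numbered deviations from the group means were -0.27 to 0.35, which cannot exclude pairing. No block was used in the main comparison, and a block was 1 of the alternatives. Figures were drawn with Python 3.11.15 (matplotlib 3.10.9).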

Additional observations from a re-analysis of the deposited data

Results flagged for a closer look

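Among 50 groups of 4 samples of the named P450 genes, 4 held a sample that stood far from the other 3, where chance gives about 1 in 20. Cyp1b1 was 7.53 in SP replicate 4, against 6.45 to 6.55 in the other SP samples. Cyp1a1 was 4.29 in the same sample, against 4.48 to 4.50 in the others, none above the range of the Y-linked genes. Cyp4f13 was 10.11 in SP replicate 3, against 9.63 to 9.68 in the other SP samples. Cyp4f16 was 7.59 in PBS replicate 3, against 8.00 to 8.08 in the other PBS samples. The causes were not tested.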

How the results depend on the processing

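The count of P450 genes lower by 2-fold was 10 to 13 over all alternatives, 12 to 13 when a sample was left out, and no alternative added a gene to the 13. The count higher by 2-fold was 0 in the main comparison and became 1 (Cyp7b1) with array weights, an intensity trend with a robust prior, quantile normalization or rows below the median left out, and 2 (Cyp7b1 and Cyp4f18) with arrays centred on their median. It was 0 to 1 when a sample was left out, with 1 without SP replicate 3. With the replicate number as a block, 13 were lower and 0 higher, and 4324 rows were called in all (4341 without the block). With a level of 6 in place of 5, 19 genes exceeded it, with the highest Y-linked value 38, and with either scaling 34. Leaving out rows below the median of all rows left 19 P450 genes to test, and Cyp26b1 was not among them. Of 368 values of named genes under alternatives, 327 kept their direction and side of the threshold, 16 lost a call, 14 gained one and 11 reversed. The reversed values passed no test. Cyp1b1 was at 0.26 with centred arrays, 0.42 with quantile normalization, 0.11 without PBS replicate 1 and 0.05, 0.08 and 0.07 without SP replicates 1, 2 and 3 (over all samples left out it ranged from -0.28 to 0.11, without SP replicate 4 at -0.28, not reversed). Cyp2e1 was at 0.22 with centred arrays and 0.0055 without PBS replicate 1, Cyp2u1 was at 0.14 with centred arrays, and Cyp11a1 and Cyp1a1 were at -0.047 and -0.10 with quantile normalization. The causes were not tested.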
